A study of Mus musculus with 16 samples.

Results

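Mitosis, spindle and kinetochore genes were followed in CD8 T cells sorted from TS/A tumours, a transplantable mammary adenocarcinoma line of the mouse, after dosing with vehicle or with entinostat, a benzamide that inhibits histone deacetylases of class I. The set held 42 of the 24028 genes in the deposited table of exon counts, chosen by gene symbol as known components of chromosome condensation, the mitotic spindle, the kinetochore and the exit from mitosis. BALB/c mice received TS/A cells in the mammary pad, and vehicle or entinostat at 20 mg/kg was given every day from day 7 on. Tumours were taken at day 10, after 3 days of dosing, or at day 17, after 10 days. Live cells that carried CD45.2 and CD8 and lacked CD4 were sorted and their total RNA was sequenced, in 4 libraries for each of the 4 groups (vehicle day 10, entinostat day 10, vehicle day 17, entinostat day 17). All 4 groups bore the same tumour line, and the labels give no age and do not say whether a library is 1 animal or a pool. The series asks how the effect of inhibiting histone deacetylases on proliferation and effector function depends on the length of treatment.

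A dividing cell condenses its chromosomes with topoisomerase II and the condensin complexes, enters mitosis under cyclin A and cyclin B bound to CDK1, and attaches each chromosome to spindle microtubules through the kinetochore. The spindle checkpoint (the BUB and MAD proteins with the kinase TTK) holds the anaphase-promoting complex back until every kinetochore is attached. CDC20 and the ubiquitin-conjugating enzyme UBE2C then drive the destruction of cyclin B and securin, separase cuts cohesin, and the midzone proteins build the cleavage furrow. RNA of most of these genes is low in resting cells and rises late in the cell cycle, and antigen-driven CD8 T cells are among the fastest dividing cells of the mouse.

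Many promoters of this kind carry a cell cycle genes homology region (CHR), read by the DREAM and MuvB complexes, near CCAAT boxes bound by NF-Y, so the promoters were set beside the values. The RefSeq promoter table on GRCm38.p6 held 39 windows for 36 of the 42 genes, each from 250 bases before to 50 bases after a transcription start. A CHR (TTTGAA or TTCGAA, both strands, the second reading the same on both) was in 31 of the 39 windows (79.5%), against 19.2% of all 32851 windows. CCAAT, on either strand, was in 74.4% of the member windows and in 37.4% of all windows, and both motifs were in 69.2% and 7.52%. The 120 bases before the start, 5′ to 3′ on the gene's own strand, are printed for 7 genes that hold both motifs and come from 4 of the 8 roles, for Bub3, which holds both and was not called in any comparison, and for Mad2l1, which holds neither and changed most often. Capitals mark CHR and CCAAT matches (ATTGG and TTCAAA are the same motifs on the other strand).
Cdk1: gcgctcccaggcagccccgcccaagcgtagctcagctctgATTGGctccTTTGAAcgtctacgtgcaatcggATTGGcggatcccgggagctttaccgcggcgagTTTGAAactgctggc
Top2a: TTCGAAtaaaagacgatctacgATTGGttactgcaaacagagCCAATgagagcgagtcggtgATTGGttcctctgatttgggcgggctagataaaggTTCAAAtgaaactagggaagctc
Ccnb2: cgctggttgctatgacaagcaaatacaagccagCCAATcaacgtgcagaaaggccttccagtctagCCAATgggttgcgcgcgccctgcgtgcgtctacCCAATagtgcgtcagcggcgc
Kif11: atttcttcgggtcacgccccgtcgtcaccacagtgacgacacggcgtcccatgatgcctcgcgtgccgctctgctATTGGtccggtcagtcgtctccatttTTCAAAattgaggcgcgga
Ube2c: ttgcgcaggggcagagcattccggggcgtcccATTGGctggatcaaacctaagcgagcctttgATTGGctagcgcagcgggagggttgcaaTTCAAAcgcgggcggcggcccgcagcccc
Cdc20: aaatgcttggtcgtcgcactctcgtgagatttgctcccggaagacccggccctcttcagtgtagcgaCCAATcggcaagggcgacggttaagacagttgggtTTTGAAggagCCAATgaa
Espl1: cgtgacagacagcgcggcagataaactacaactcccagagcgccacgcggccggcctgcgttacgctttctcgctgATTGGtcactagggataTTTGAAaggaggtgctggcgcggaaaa
Bub3: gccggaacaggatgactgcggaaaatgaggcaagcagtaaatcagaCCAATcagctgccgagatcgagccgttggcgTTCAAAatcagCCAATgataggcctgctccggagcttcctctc
Mad2l1: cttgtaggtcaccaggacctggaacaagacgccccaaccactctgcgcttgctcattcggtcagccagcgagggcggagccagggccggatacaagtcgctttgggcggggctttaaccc
These stretches lie at chr10:69352913-69353032 (Cdk1, minus strand), chr11:99024190-99024309 (Top2a, minus strand), chr9:70421555-70421674 (Ccnb2, minus strand), chr19:37376262-37376381 (Kif11, plus strand), chr2:164769809-164769928 (Ube2c, plus strand), chr4:118437344-118437463 (Cdc20, minus strand), chr15:102296173-102296292 (Espl1, plus strand), chr7:131560250-131560369 (Bub3, plus strand) and chr6:66535101-66535220 (Mad2l1, plus strand). Ccnb2 has its CHR matches outside the printed stretch, from 167 to 162 bases before the start and at bases 4 to 9 after it. Counted by gene, 24 of the 36 had both motifs in at least 1 window, 6 had 1 of them and 6 (Mad2l1, Birc5, Nuf2, Kif18a, Nusap1 and Pttg1) had neither, and 8.61% of the 27025 genes in the table had both. Among the genes that differed between the treatments, Smc4 lies at chr3:69004738-69034623, Mad2l1 at chr6:66535221-66541107, Mki67 at chr7:135689784-135716450, Top2a at chr11:98992947-99024199, Smc2 at chr4:52439221-52488365, Bub1b at chr2:118598202-118641592, Kif11 at chr19:37376382-37421863 and Kif18a at chr2:109280738-109341749 (RefSeq, GRCm38.p6), and the counts are over their exons. A match is a description of the letters and not a measured binding site.

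Total counts ran from 554593 in entinostat day 17 library 3 to 6975904 in vehicle day 17 library 1. Levels below are CPM scaled by TMM, a gene's share of the counts of its library, and all 42 genes passed the filter on low counts and had at least 1 count in every library, with 3 counts as the lowest value (in entinostat day 17 library 3). T cell genes were present in every library (Cd8a from 309 to 591 CPM, Cd3e from 308 to 614 CPM). The 10 T cell markers summed to 3155 ± 189, 2781 ± 192, 2542 ± 127 and 3157 ± 640 CPM (SD, n = 4) in vehicle day 10, entinostat day 10, vehicle day 17 and entinostat day 17. For entinostat at day 17 their log2 differences ran from 0.02 (Cd5) to 0.44 (Cd8b1), with adjusted p from 0.0538 (Cd2) to 0.937 (Cd5) by edgeR. The part of this shift in the results was not tested. Cd4 stood at 5.21 to 54.8 CPM. Its group means were 31.0, 9.64, 48.1 and 7.49 CPM in the same order, lower under entinostat on both days (adjusted p = 0.00297 and 2.03e-05, edgeR). Among other CD4 T cell markers, Foxp3 ran from 0.515 to 92.6 CPM and Cd40lg from 12.9 to 97.4 CPM by library. With Zbtb7b, the 4 CD4 T cell markers summed to 116 to 187 CPM in vehicle day 10 and 91.1 to 139 CPM in entinostat day 10. At day 17 they summed to 130 to 175 CPM under vehicle, and under entinostat to 140.2 CPM in library 1 and 41.4 to 66.5 CPM in libraries 2 to 4. Of the 140.2 CPM in library 1, 92.6 CPM was Foxp3. Markers of other cells moved with the groups, though the genes of a list did not all move together. The macrophage and monocyte markers summed to means of 112, 55.7, 164 and 60.2 CPM in vehicle day 10, entinostat day 10, vehicle day 17 and entinostat day 17. Cd68 had means of 93.1, 29.5, 117 and 18.0 CPM and was lower under entinostat on both days (adjusted p = 0.000426 and 2e-06, edgeR). Adgre1 was higher under entinostat at day 10 (6.36 against 0.997 CPM, adjusted p = 0.0123). The summed level of 10 plasmacytoid dendritic cell markers was 2256 ± 647 CPM (SD, n = 4) and 2734 ± 280 CPM under vehicle at days 10 and 17, and 656 ± 164 and 674 ± 61.8 CPM under entinostat. Within the entinostat sums Irf8 rose from 216 to 370 CPM between the days (adjusted p = 0.00574, edgeR). Bst2 (60.2 to 43.0 CPM), Ccr9 (71.0 to 48.2), Pld4 (79.7 to 48.8) and Ly6d (24.8 to 1.67) fell, with adjusted p from 0.00738 to 0.0458. Siglech, Rnase6, Tcf4, Spib and Flt3 did not pass with time under entinostat. The sum of 7 stromal markers was 10.1 to 21.4 CPM in vehicle day 10 libraries 1 to 3 and 240.3 CPM in library 4, and it ran from 132 to 1553 CPM in vehicle day 17, from 33.7 to 355 CPM in entinostat day 10 and from 156 to 443 CPM in entinostat day 17. Of the 240.3 CPM in vehicle day 10 library 4, 212 CPM was Col1a1. The 11 markers of the mammary epithelium and tumour summed to 159 to 262, 116 to 162, 178 to 338 and 91.3 to 204 CPM in vehicle day 10, entinostat day 10, vehicle day 17 and entinostat day 17, with Krt8 at most 4.07 CPM and Cldn4 at most 0.536 CPM and at 0 in 10 libraries. Most of each group's mean sum was Cdh1, with means of 203, 108, 220 and 83.9 CPM in the same order of groups. Cdh1 was lower under entinostat on both days (adjusted p = 0.00393 and 4.17e-05, edgeR), as was the plasmacytoid marker sum. Krt18 had means of 3.95, 7.53, 21.9 and 27.0 CPM in the same order of groups (up to 71.2 CPM in 1 library) and Epcam reached 18.6 CPM. In that order the endothelial markers summed to means of 224, 156, 212 and 169 CPM and the B cell markers to 28.6, 54.4, 41.9 and 54.3 CPM. Of the endothelial list, Cdh5 was lower under entinostat on both days and Vwf higher at day 17 (adjusted p = 0.00108, 0.000229 and 0.0009, edgeR). The 5 NK cell markers summed to 46.4 to 138 CPM by library, most of it Eomes, which activated CD8 T cells also express and whose group means ran from 73.4 to 107 CPM; Klrb1c and Ncr1 were detected at up to 10.5 and 9.38 CPM, and Klra4 was at 0 in all 16 libraries. Genes of olfactory and vomeronasal receptors, which have no known use in a T cell, took up 1592 ± 644, 3635 ± 2239, 3258 ± 1931 and 4753 ± 1196 CPM in vehicle day 10, entinostat day 10, vehicle day 17 and entinostat day 17. The part of these other reads in the results below was not tested except where a value is given.

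As a whole, the mitosis genes were lowest at day 10 in both treatments and highest after 10 days of entinostat. Summed over the 42 genes, vehicle day 10 libraries 1 to 4 held 1363, 1323, 1475 and 1856 CPM, and entinostat day 10 libraries held 1429, 1199.6, 1494 and 1443 CPM. At day 17 the sums were 2427, 1910.4, 1942 and 2085 CPM under vehicle and 3159, 2635, 2165 and 2904 CPM under entinostat. The day 17 sums lay above the day 10 sums of the same treatment in every library, the 2 treatments overlapped at day 10, and at day 17 entinostat library 3 lay among the vehicle libraries. After receptor reads per kb of exon were taken off each gene, the group sums were 1429 ± 226, 1219 ± 157, 1937 ± 310.2 and 2492 ± 459 CPM (SD, n = 4) in vehicle day 10, entinostat day 10, vehicle day 17 and entinostat day 17. With the coding length of the receptors they were 1242 ± 200.2, 794 ± 374, 1556 ± 517 and 1939 ± 559 CPM. The group mean was highest in entinostat day 17 for 34 of the 42 genes, and lowest in vehicle day 10 for 22 and in entinostat day 10 for 19. Vehicle day 17 exceeded vehicle day 10 in the group mean for 40 genes, the exceptions being Smc4 and Bub3, and entinostat day 17 exceeded entinostat day 10 for 40, the exceptions being Smc4 and Pttg1. In bulk RNA, a larger share of dividing cells and more RNA per dividing cell cannot be told apart.

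**Figure D1:**
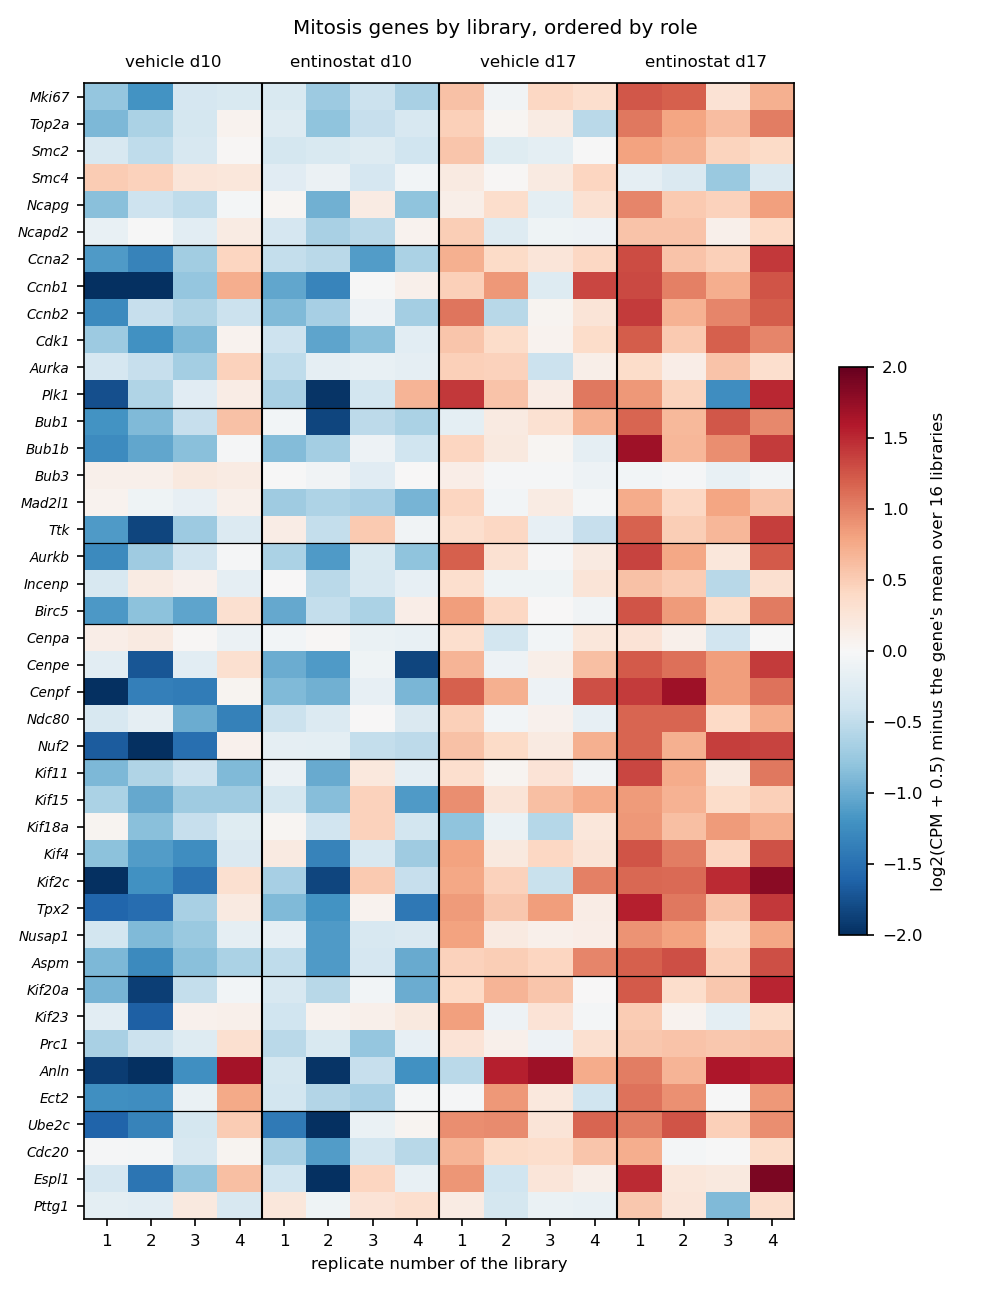
Level of each of the 42 genes in each of the 16 libraries, as log2(CPM + 0.5) minus the gene's mean over all libraries, with rows grouped by role and columns by group and replicate number; values past the ends of the colour scale are drawn at its ends. In 34 of the 42 rows the highest group mean is that of entinostat day 17, though its library 3 sums to 2165 CPM, under the 2427 CPM of vehicle day 17 library 1, while vehicle day 10 library 4 stands above its group in 33 rows and Smc4 runs the other way.

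Libraries within a group differed in a shared manner. Vehicle day 10 library 4 was the highest of its group for 33 of the 42 genes, and it was also the library of that group with 240.3 CPM of stromal markers. Of that sum 212 CPM was Col1a1. Col1a2, Col3a1, Dcn and Lum were at most 5.23, 6.11, 4.89 and 2.14 CPM in any vehicle day 10 library. Vehicle day 17 library 1, the deepest, was highest for 27, entinostat day 17 library 1 was highest for 23, and entinostat day 17 library 3, the shallowest, was lowest for 28. Entinostat day 10 library 2 was lowest for 23. Each count below is therefore followed by its value without the libraries that move it.

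**Figure D2:**
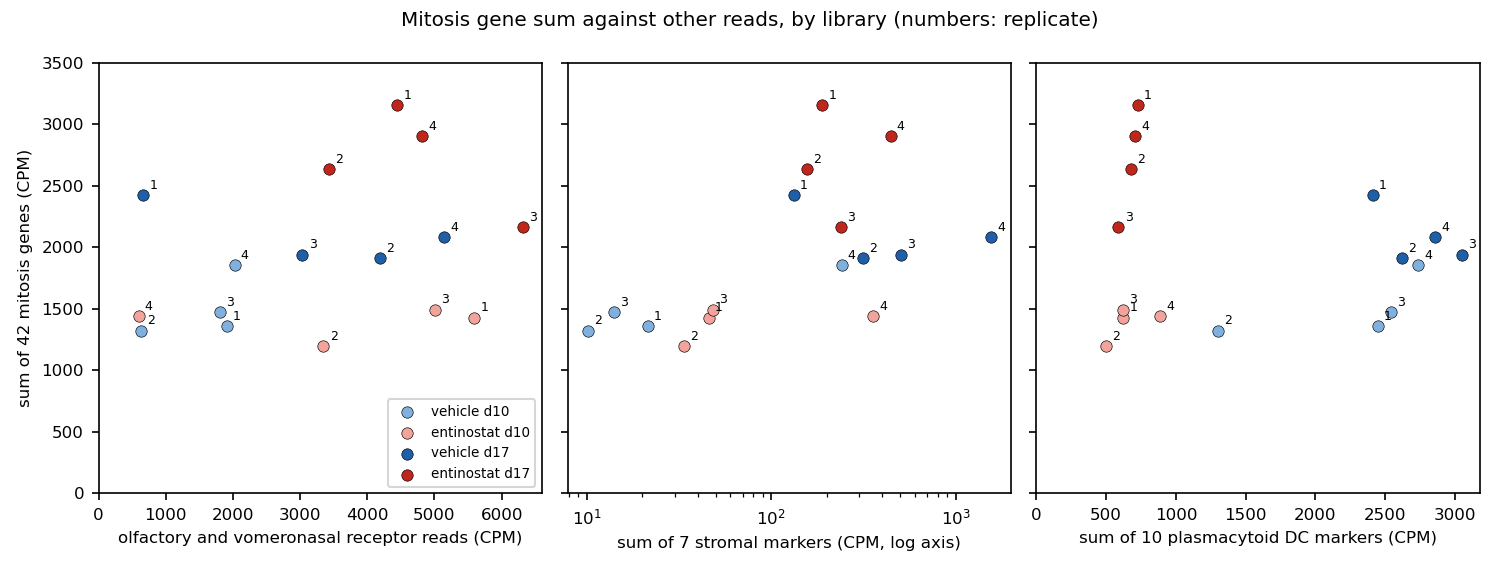
Sum of the 42 genes in each library (y axis, CPM) against reads in receptor genes (left, CPM), stromal markers (middle, CPM on a log axis) and plasmacytoid dendritic cell markers (right, CPM); points are libraries, coloured by group and numbered by replicate. Entinostat libraries of both days sit at low plasmacytoid marker sums (498 to 887 CPM) with gene sums from 1199.6 to 3159 CPM, and vehicle day 10 library 4 is the vehicle day 10 point with the highest stromal sum, most of it Col1a1, and the highest gene sum.

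After 3 days of dosing, 2 of the 42 genes were lower under entinostat and 0 were higher. Smc4, a core subunit of condensin, fell by 0.54 on the log2 scale, and Mad2l1, the checkpoint protein that restrains CDC20, fell by 0.73. The other 40 had log2 differences from -0.92 (Anln) to 1.00 (Ttk) and did not pass the threshold (adjusted p under 0.05, edgeR's quasi-likelihood test over all genes). Of all 17414 genes tested, 14.6% passed in either direction, 7.63% higher and 6.93% lower. The median log2 difference was 0.05 over the members, 0.06 over all genes tested and -0.16 over the 10397 genes above the receptor background, with 22 members above 0 and 20 below. Receptor reads were higher under entinostat at this day (3635 against 1592 CPM). After the receptor level was taken off each gene, the entinostat mean was the higher for 16 of the 42 with exon length and for 3 with coding length, with 0 members higher and 4 or 5 lower without overlap. Without overlap between the 4 and 4 libraries, 0 members were higher and 4 lower (Smc4, Mad2l1, Bub3 and Cdc20), where 7.81% and 12.4% of all genes were higher and lower without overlap. Without vehicle day 10 library 4, 4 members passed, 2 of them higher (Nuf2 and Ttk). By edgeR 1 member was higher and 4 lower at an unadjusted p under 0.05, DESeq2 called 1 higher and 2 lower, and limma-voom 2 higher and 4 lower. Both falls held under all 28 alternatives (adjusted p at most 0.0447 for Smc4 and 0.0414 for Mad2l1).

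After 10 days of dosing, 7 members were higher under entinostat than under vehicle and 1 was lower. Mki67, Top2a and Smc2 of the chromosomes, Bub1b and Mad2l1 of the checkpoint, and the spindle motors Kif11 and Kif18a were higher, by 0.49 (Mad2l1) to 1.10 (Bub1b) on the log2 scale, and Smc4 was lower by the same 0.54 as at day 10. These 8 were among 18.3% of all genes that passed, 5.29% higher and 13% lower. Of the 10397 genes above the receptor background, 372 were higher and 2166 lower. The median difference of the 42 was 0.55, against -0.01 over all genes tested and -0.21 over those above the receptor background. Of the 42, 35 were above 0. For 9 members (Top2a, Ncapg, Bub1b, Ttk, Cenpe, Nuf2, Kif18a, Kif2c and Prc1) all 4 entinostat libraries lay above all 4 vehicle libraries, and only Smc4 did the reverse, against 10.8% and 13.6% of all genes. Top2a, Kif18a and Smc4 passed under all 28 alternatives, and the others did not. Among members not called, Ndc80 passed as higher in 9 alternatives, Ccnb2 and Ncapd2 in 8 each, Cdk1 and Prc1 in 5 each and Ttk in 4. The count fell from 8 to 3 without entinostat library 1, and to 4 without vehicle library 2, 3 or 4, and was 10 without vehicle library 1. Entinostat library 1 also held 140.2 CPM of CD4 T cell markers, against 41.4 to 66.5 CPM in libraries 2 to 4. Of the 140.2 CPM, 92.6 CPM was Foxp3, while Cd4 was at most 9.95 CPM in any library of this group. The part of these markers was not tested. Plasmacytoid markers were lower under entinostat at this day (674 against 2734 CPM), as they were at day 10, and their part in the differences was not tested. The T cell marker sum was 3157 ± 640 CPM under entinostat and 2542 ± 127 CPM under vehicle (SD, n = 4), and its part was not tested either. Receptor reads were higher (4753 against 3258 CPM). With receptor reads as a covariate 10 members passed, and after the receptor level per kb of exon was taken off each gene, 5 were higher and 1 lower without overlap (2 and 1 with the coding length of the receptors).

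**Figure D3:**
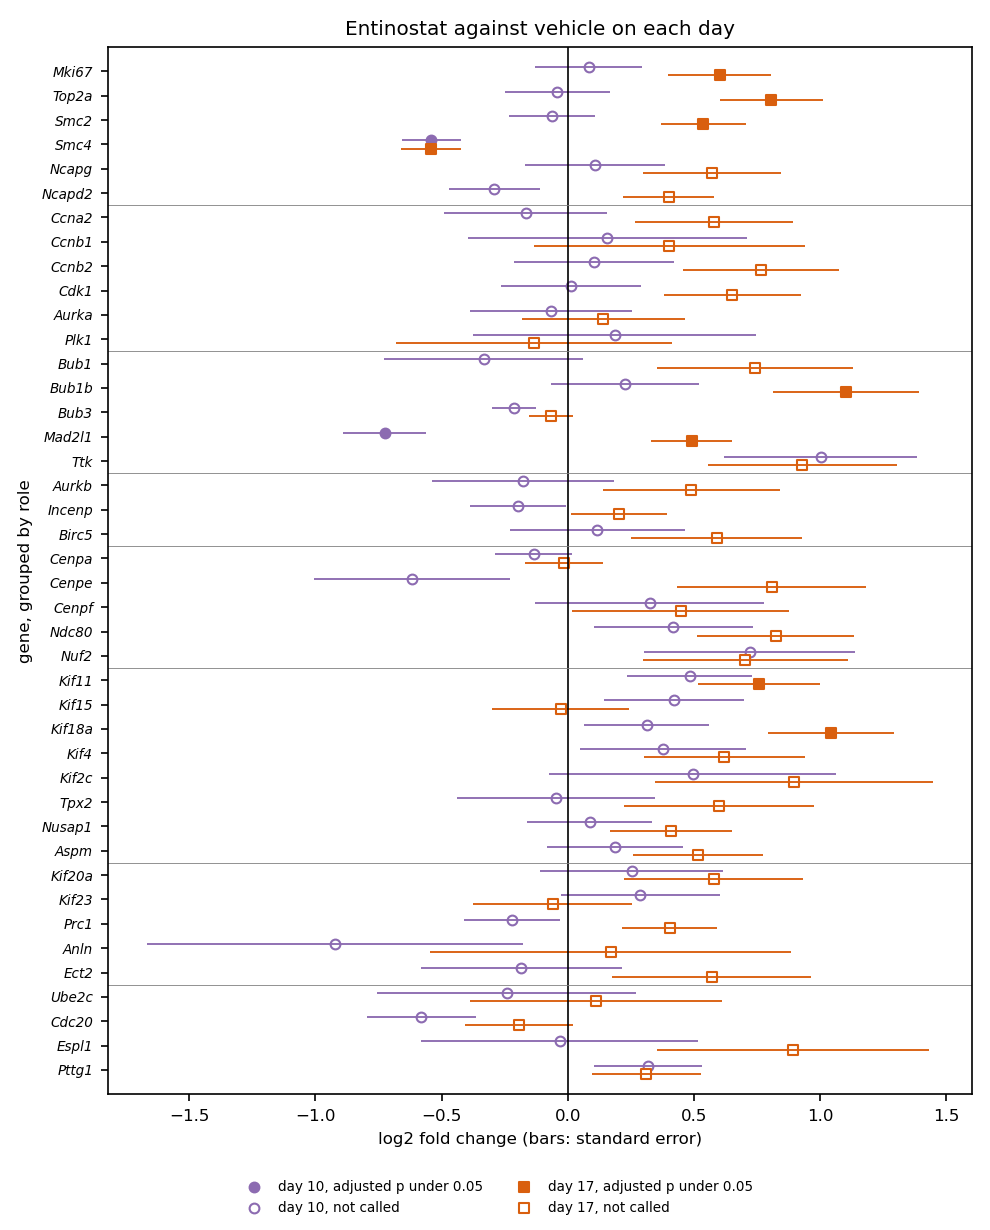
Entinostat against vehicle for each of the 42 genes at day 10 (circles) and day 17 (squares), as log2 fold change with its standard error; filled symbols passed an adjusted p of 0.05 in edgeR. The day 10 symbols scatter around 0 (median 0.05) and the day 17 symbols lie mostly to the right of it (median 0.55), with Smc4 at -0.54 on both days and Mad2l1 on opposite sides.

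Under vehicle, 10 members rose between day 10 and day 17 and 0 fell. They were Mki67, the kinase Cdk1, the kinetochore proteins Cenpf and Nuf2, and 6 of the 8 spindle genes (Kif11, Kif15, Kif4, Tpx2, Nusap1 and Aspm). The changes ran from 0.86 to 1.93 on the log2 scale. At an unadjusted p under 0.05, 25 were higher and 0 lower, and DESeq2 and limma-voom each called 16 higher and 0 lower. Of all genes tested, 5.52% passed, 1.89% higher and 3.63% lower. The median over the 42 was 0.86, over all genes 0.13 and over the genes above the receptor background -0.08. Without overlap 11 members were higher and 0 lower, where 4.78% and 8.77% of all genes were. The count hung on single libraries: it was 19 without vehicle day 10 library 4, 2 without vehicle day 10 library 1 or 2, 3 without vehicle day 10 library 3, and 4 without vehicle day 17 library 2, 3 or 4. It was 6 without vehicle day 17 library 1, entinostat day 10 library 1 or entinostat day 17 library 1 or 4, the last 3 of which are not in this comparison. Kif15 and Aspm passed under all 28 alternatives. The mean stromal sum went from 71.5 to 625 CPM between the same groups, the receptor reads from 1592 to 3258 CPM, and with the receptor level per kb of exon taken off 7 members were higher without overlap (3 with the coding length).

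Under entinostat, 29 members rose from day 10 to day 17 and 0 fell. The rise took in 5 of 6 chromosome genes, 3 of 6 cyclins and entry kinases, 3 of 5 checkpoint genes, 2 of 3 passenger genes, 4 of 5 kinetochore genes, all 8 spindle genes, 2 of 5 midzone genes and 2 of 4 anaphase genes. The largest changes that passed were Cenpe, 2.09 ± 0.39 (SE), Cenpf, 2.05 ± 0.45, and Tpx2, 2.00 ± 0.40. Of all genes tested, 13.7% passed, 3.26% higher and 10.5% lower. The median of the 42 was 1.36, against 0.03 over all genes and -0.15 over those above the receptor background. Without overlap 31 members were higher and 0 lower, against 8.94% and 12.5% of all genes. At an unadjusted p under 0.05, 35 were higher and 0 lower, and DESeq2 called 35 higher and limma-voom 36, with 0 lower. Leaving out 1 library gave 23 to 32 called members. Receptor reads went from 3635 to 4753 CPM between these groups, and after their level per kb was taken off 30 members were higher without overlap, or 18 with the coding length. The comparisons of the 2 treatments and of the 2 days share libraries, so their counts are not independent.

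**Figure D4:**
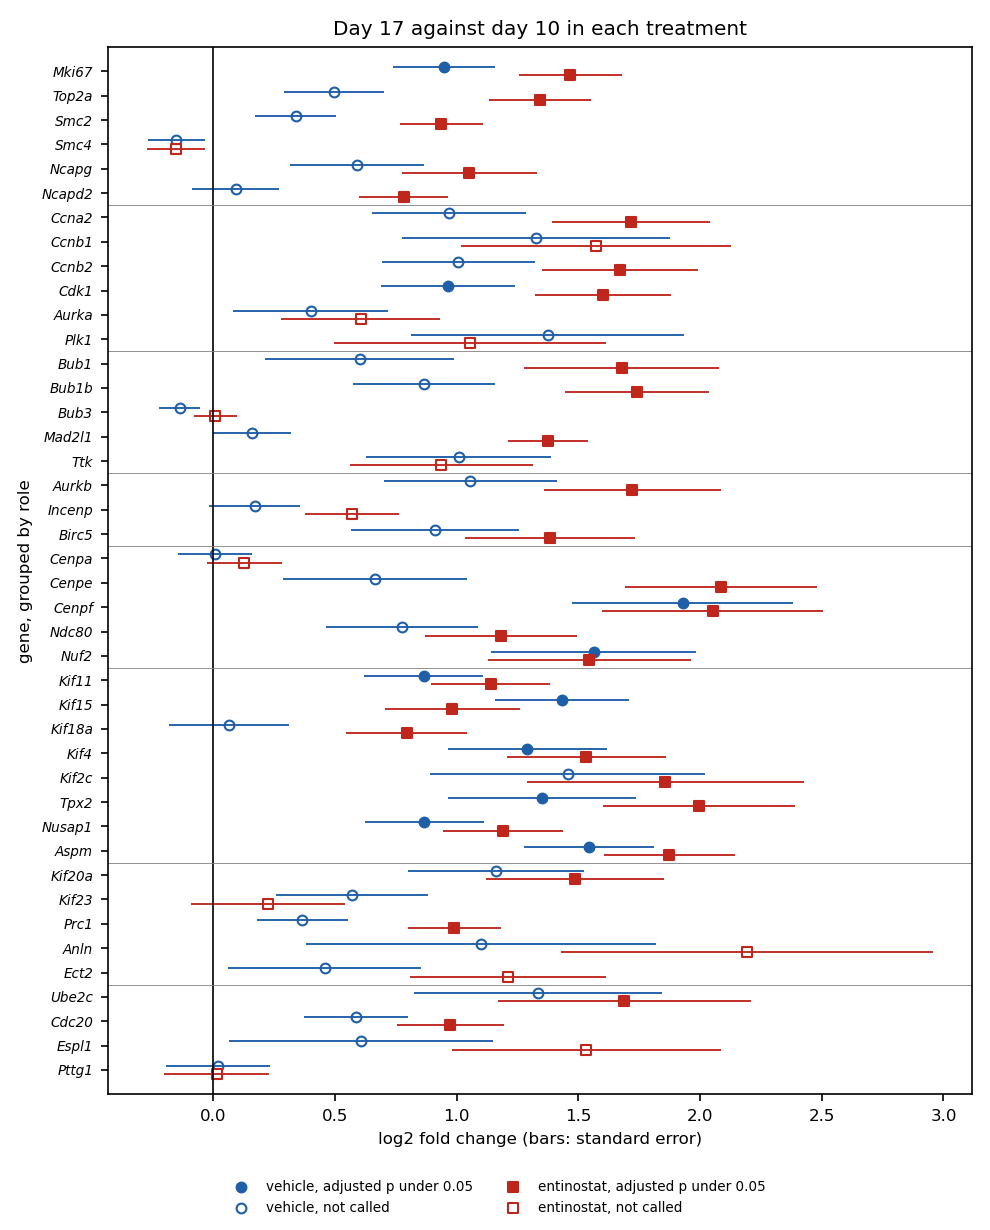
Day 17 against day 10 for each of the 42 genes under vehicle (blue circles) and entinostat (red squares), as log2 fold change with its standard error; filled symbols passed an adjusted p of 0.05 in edgeR. Nearly all symbols lie right of 0, with 10 filled circles and 29 filled squares, and Smc4, Bub3, Cenpa and Pttg1 lie near 0 in both treatments.

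All 10 members that rose under vehicle also rose under entinostat, and 19 passed under entinostat alone. The test of the difference itself, the entinostat effect at day 17 minus that at day 10, passed for 1 of the 42, Mad2l1, at 1.22 ± 0.23 (SE), adjusted p = 0.0279. At an unadjusted p under 0.05, 7 were higher and 0 lower, and DESeq2 and limma-voom each called 2 higher. In all genes tested 0.471% passed, 0.218% higher and 0.253% lower. The median of this difference was 0.40 over the 42, -0.20 over all genes and -0.11 over those above the receptor background, and 35 of the 42 were above 0. The Mad2l1 difference missed the threshold without any 1 of 8 libraries (vehicle day 10 libraries 1, 3 and 4, entinostat day 10 libraries 1 and 3, vehicle day 17 libraries 2 and 3, entinostat day 17 library 1, adjusted p = 0.0512 to 0.0732).

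Among the genes of chromosome structure, Mki67 (the marker of dividing cells, whose product coats mitotic chromosomes), Top2a (topoisomerase II alpha, which unlinks sister DNA) and Smc2 rose together under entinostat while Smc4 did not. Mki67 stood at 64.8, 48.5, 88.2 and 90.2 CPM in vehicle libraries 1 to 4 and 89.6, 66.9, 82.3 and 70.95 CPM in entinostat libraries 1 to 4 at day 10. For Mki67 at day 17 the values were 167, 106, 149 and 139.9 CPM under vehicle and 264, 256, 136 and 182 CPM under entinostat. The day 17 libraries lay above the day 10 libraries in both treatments, and at day 17 the treatments overlapped through entinostat library 3. Its change with time was 0.95 ± 0.21 (SE), adjusted p = 0.016 under vehicle and 1.47 ± 0.21 (SE), adjusted p = 0.000177 under entinostat, and the difference between treatments at day 17 was 0.60 ± 0.20 (SE), adjusted p = 0.0482. The Mki67 difference at day 17 was lost without any 1 of 8 libraries (vehicle day 10 library 3, entinostat day 10 libraries 1 and 3, vehicle day 17 libraries 2, 3 and 4, entinostat day 17 libraries 1 and 2, adjusted p = 0.0572 to 0.135), and with the replicate number as a block its adjusted p was 0.0536. The Mki67 rise under vehicle was lost without any 1 of 2 libraries (vehicle day 10 libraries 1 and 2, adjusted p = 0.0502 to 0.0563).

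Top2a stood at 62.9, 75.2, 92.1 and 123 CPM in vehicle libraries 1 to 4 and 98.2, 67.2, 85.4 and 93.6 CPM in entinostat libraries 1 to 4 at day 10. For Top2a at day 17 the values were 164, 120.4, 132 and 80.2 CPM under vehicle and 244, 203, 179 and 238 CPM under entinostat. All 4 entinostat libraries were above all 4 vehicle libraries at day 17, and the treatments overlapped at day 10. The day 17 difference was 0.81 ± 0.20 (SE), adjusted p = 0.011, a 1.75-fold level, and the rise under entinostat was 1.34 ± 0.21 (SE), adjusted p = 0.000326. Under vehicle the change was 0.50 ± 0.21 (SE), adjusted p = 0.143.

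Smc2 and Smc4 encode the 2 ATPase arms that pair in every condensin complex, and their RNA did not move together. Smc2 stood at 60.8, 53.1, 60.4 and 76.9 CPM in vehicle libraries 1 to 4 and 59.1, 61.01, 63.5 and 57.01 CPM in entinostat libraries 1 to 4 at day 10. For Smc2 at day 17 the values were 111, 63.5, 65.9 and 75.4 CPM under vehicle and 132, 124, 103 and 98.4 CPM under entinostat. Only vehicle library 1 of day 17 reached the entinostat range, and the treatments overlapped at day 10. Smc2 was higher under entinostat at day 17 by 0.54 ± 0.17 (SE), adjusted p = 0.0335, lost without any 1 of 5 libraries (vehicle day 17 libraries 2, 3 and 4, entinostat day 17 libraries 1 and 2, adjusted p = 0.05003 to 0.0964). It rose under entinostat by 0.94 ± 0.17 (SE), adjusted p = 0.0012. Smc4 stood at 288, 278, 239 and 236 CPM in vehicle libraries 1 to 4 and 174, 186, 159.7 and 195 CPM in entinostat libraries 1 to 4 at day 10. For Smc4 at day 17 the values were 228, 206, 229 and 274 CPM under vehicle and 178, 166, 121 and 166 CPM under entinostat. Entinostat libraries lay below vehicle libraries on both days with no overlap, while the 2 days of each treatment overlapped. The difference was -0.54 ± 0.12 (SE), adjusted p = 0.00817 at day 10 and -0.54 ± 0.12 (SE), adjusted p = 0.00415 at day 17, and the change with time was -0.15 ± 0.12 (SE), adjusted p = 0.453 under entinostat. Per kb of exon, Smc4 had the highest mean level of the 42 (39.9 CPM per kb), and Smc2 had 14.4. The condensin I subunits Ncapg (13.4 to 29.9 CPM at day 10 and 36.5 to 52.7 CPM at day 17) and Ncapd2 (47.9 to 79.4 and 81.3 to 113 CPM) rose under entinostat by 1.05 ± 0.28 and 0.78 ± 0.18, adjusted p = 0.0167 and 0.0076. The Ncapg call was lost without any 1 of 4 libraries (entinostat day 10 libraries 2 and 4, entinostat day 17 libraries 1 and 4, adjusted p = 0.0595 to 0.0741).

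Of the mitotic cyclins and entry kinases, Ccna2 (cyclin A2), Ccnb2 (cyclin B2) and their partner Cdk1 rose under entinostat. Cdk1 also passed under vehicle, a call lost in 14 of the 28 alternatives. Ccnb1, Plk1 and Aurka did not pass in any comparison. Cdk1, the kinase that starts mitosis, stood at 17.7, 12.4, 15.8 and 31.1 CPM in vehicle libraries 1 to 4 and 21.9, 13.9, 16.3 and 25.6 CPM in entinostat libraries 1 to 4 at day 10. For Cdk1 at day 17 the values were 43.3, 38.1, 30.9 and 38.1 CPM under vehicle and 69.1, 42.5, 68.02 and 58.7 CPM under entinostat. Vehicle day 10 library 4 reached the lowest vehicle value of day 17, and the 2 days were apart under entinostat. The rise was 0.96 ± 0.28 (SE), adjusted p = 0.0481 under vehicle and 1.60 ± 0.28 (SE), adjusted p = 0.000887 under entinostat, and the entinostat difference at day 17 was 0.65 ± 0.27 (SE), adjusted p = 0.102. The vehicle call of Cdk1 was lost without any 1 of 12 libraries (vehicle day 10 libraries 1, 2 and 3, entinostat day 10 libraries 1 and 3, vehicle day 17 libraries 1, 2, 3 and 4, entinostat day 17 libraries 1, 3 and 4, adjusted p = 0.0528 to 0.146).

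Ccna2 stood at 18.03, 15.6, 24.6 and 54.1 CPM in vehicle libraries 1 to 4 and 28.6, 27.5, 18.2 and 25.9 CPM in entinostat libraries 1 to 4 at day 10. For Ccna2 at day 17 the values were 66.3, 52.4, 47.6 and 53.8 CPM under vehicle and 101, 60.3, 56.4 and 108 CPM under entinostat. Day 10 library 4 of vehicle stood among the day 17 vehicle values, and the entinostat days did not overlap. The change was 1.72 ± 0.32 (SE), adjusted p = 0.00167 under entinostat and 0.97 ± 0.32 under vehicle (adjusted p = 0.0745). The vehicle change of Ccna2 passed in 6 of the 28 alternatives, with an adjusted p of 0.0263 by both DESeq2 and limma-voom. Ccnb2 stood at 10.4, 18.7, 17 and 19.1 CPM in vehicle libraries 1 to 4 and 13.8, 16.2, 24.1 and 16.1 CPM in entinostat libraries 1 to 4 at day 10. For Ccnb2 at day 17 the values were 54.9, 17.5, 27.02 and 31.2 CPM under vehicle and 68.8, 42.3, 51.4 and 60.4 CPM under entinostat. Vehicle day 17 library 2 was at the day 10 level and library 1 among the entinostat values. The change was 1.67 ± 0.32 (SE), adjusted p = 0.00179 under entinostat and 1.01 ± 0.31 under vehicle (adjusted p = 0.0642). For Ccnb2 the vehicle change passed in 4 of the 28 alternatives, among them DESeq2 (adjusted p = 0.0199).

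Ccnb1, cyclin B1, stood at 3.97, 3.37, 10.8 and 31.4 CPM in vehicle libraries 1 to 4 and 8.92, 7.21, 18.8 and 20.2 CPM in entinostat libraries 1 to 4 at day 10. For Ccnb1 at day 17 the values were 26.3, 34.9, 15.7 and 48.4 CPM under vehicle and 47.9, 38.2, 31.5 and 45.8 CPM under entinostat. Vehicle day 10 library 4 was far above the other 3, and the entinostat days did not overlap. The changes with time were 1.33 ± 0.55 (SE), adjusted p = 0.143 under vehicle and 1.57 ± 0.55 (SE), adjusted p = 0.0685 under entinostat. The Ccnb1 change under entinostat passed in 10 of the 28 alternatives, among them DESeq2 (adjusted p = 0.0202), limma-voom (adjusted p = 0.00491) and the replicate number as a block (adjusted p = 0.0302). Under vehicle it passed in 4, with an adjusted p of 0.0400 by limma-voom and 0.00910 without vehicle day 10 library 4. Plk1, the polo-like kinase of centrosome maturation and checkpoint exit, stood at 3.36, 8.04, 10.6 and 13.9 CPM in vehicle libraries 1 to 4 and 7.81, 2.83, 9.56 and 20.2 CPM in entinostat libraries 1 to 4 at day 10. For Plk1 at day 17 the values were 34, 18.8, 13.9 and 26.4 CPM under vehicle and 23.2, 17.2, 4.98 and 36.3 CPM under entinostat. Entinostat library 3 of day 17, the shallowest, was below most day 10 values, and under vehicle the 2 days met at 13.9 CPM. Its changes with time were 1.37 ± 0.56 (SE), adjusted p = 0.137 and 1.05 ± 0.56 (SE), adjusted p = 0.239. Aurka, the spindle pole kinase, stayed within 8.80 to 20.1, 10.04 to 12.95, 10.6 to 20.3 and 15.9 to 21.6 CPM in vehicle day 10, entinostat day 10, vehicle day 17 and entinostat day 17.

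The spindle checkpoint split by member: Bub1, Bub1b and Mad2l1 rose under entinostat, Bub3 and Ttk did not pass. Mad2l1 stood at 43.1, 38.6, 36.6 and 43.9 CPM in vehicle libraries 1 to 4 and 24.9, 26.5, 25.6 and 21.3 CPM in entinostat libraries 1 to 4 at day 10. For Mad2l1 at day 17 the values were 55.5, 39.4, 46.1 and 39.8 CPM under vehicle and 69.1, 54.9, 71.3 and 61.1 CPM under entinostat. At day 10 every entinostat library lay below every vehicle library, and at day 17 every entinostat library lay above vehicle libraries 2 to 4, with vehicle library 1 just above the lowest entinostat value. The entinostat effect was -0.73 ± 0.16 (SE), adjusted p = 0.0103 at day 10 and 0.49 ± 0.16 (SE), adjusted p = 0.0421 at day 17. Mad2l1 rose with time by 1.38 ± 0.17 (SE), adjusted p = 4.3e-05 under entinostat, and its difference between the days was 0.16 ± 0.16 (SE), adjusted p = 0.535 under vehicle. The Mad2l1 difference at day 17 was lost without any 1 of 9 libraries (vehicle day 10 library 3, entinostat day 10 libraries 1 and 3, vehicle day 17 libraries 2, 3 and 4, entinostat day 17 libraries 1, 3 and 4, adjusted p = 0.0542 to 0.0998), and with the replicate block its adjusted p was 0.0540, while the fall at day 10 and the rise under entinostat held in all 28 alternatives.

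Bub1b, which encodes the kinase-like BUBR1 protein of the checkpoint complex, stood at 11.3, 13.2, 15.2 and 27.2 CPM in vehicle libraries 1 to 4 and 14.9, 16.99, 25.6 and 20.9 CPM in entinostat libraries 1 to 4 at day 10. For Bub1b at day 17 the values were 37.5, 31.8, 28.3 and 24.3 CPM under vehicle and 90.03, 44.2, 53.1 and 73.6 CPM under entinostat. All entinostat libraries of day 17 were above all vehicle libraries. The day 17 difference was 1.10 ± 0.29 (SE), adjusted p = 0.0133, a 2.15-fold level, lost without entinostat day 17 library 1 (adjusted p = 0.0612). The rise under entinostat was 1.74 ± 0.30 (SE), adjusted p = 0.000692. Bub1, the kinase that loads the checkpoint onto kinetochores, stood at 9.17, 11.4, 15.5 and 32.7 CPM in vehicle libraries 1 to 4 and 20.8, 5.66, 14.8 and 13.8 CPM in entinostat libraries 1 to 4 at day 10. For Bub1 at day 17 the values were 18.7, 24.4, 26.8 and 35.3 CPM under vehicle and 48.9, 33.9, 51.4 and 42.4 CPM under entinostat. Vehicle day 10 library 4 was again apart from its group, and the entinostat days did not overlap. Its rise under entinostat was 1.68 ± 0.40 (SE), adjusted p = 0.00893 and its change under vehicle 0.60 ± 0.39 (SE), adjusted p = 0.329. Bub3, the adaptor that carries both to the kinetochore, passed in no comparison, with 137 to 147, 109 to 128, 119 to 140.2 and 114 to 125 CPM in vehicle day 10, entinostat day 10, vehicle day 17 and entinostat day 17, with a day 10 difference of -0.21 ± 0.09 (SE), adjusted p = 0.0938. Ttk, the kinase that starts the checkpoint signal, had differences of 1.00 ± 0.38, 0.93 ± 0.37, 1.01 ± 0.38 and 0.94 ± 0.38 for entinostat at days 10 and 17 and for time under vehicle and entinostat, with adjusted p from 0.0798 to 0.113. It passed in 3 of the 28 alternatives at day 10, in 4 at day 17 and in 3 for time under entinostat. By DESeq2 these adjusted p were 0.0325, 0.0267 and 0.0375, and by limma-voom 0.0265, 0.0156 and 0.0147.

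**Figure D5:**
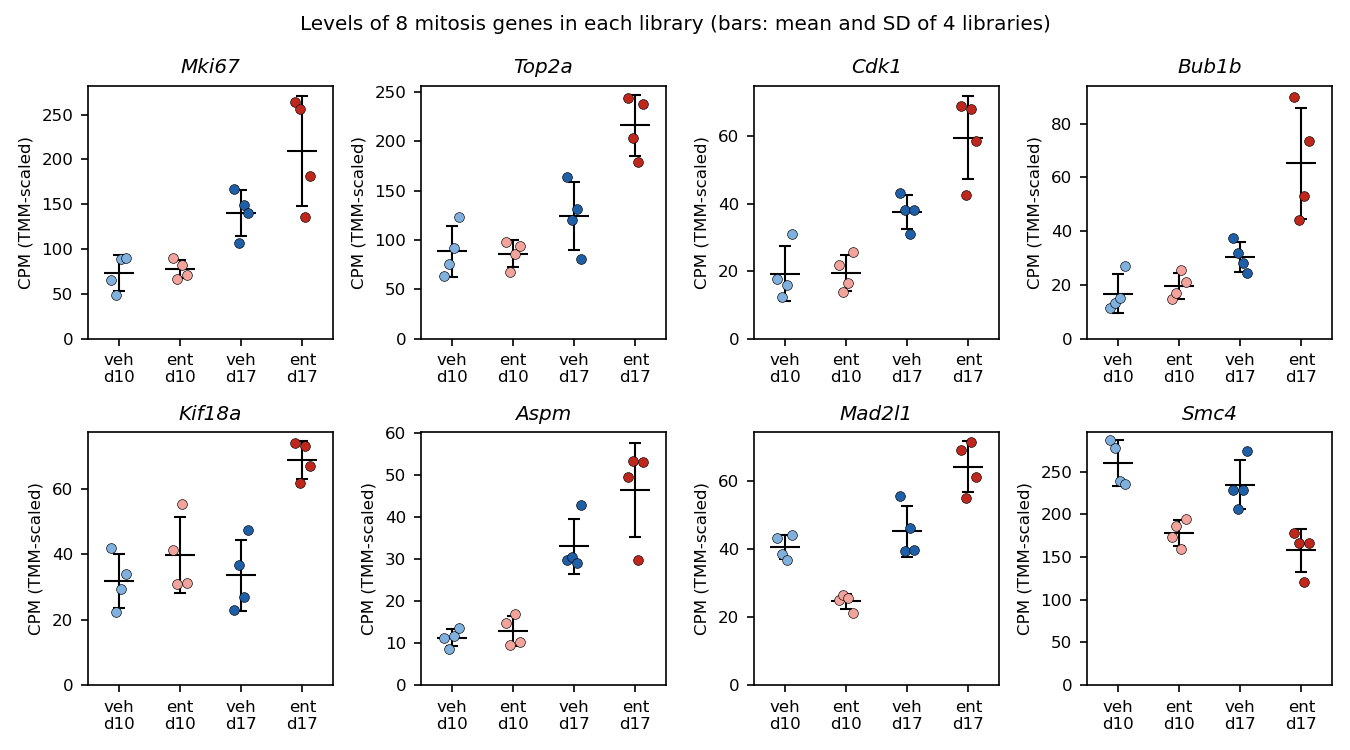
CPM of 8 of the genes in each library, with bars for the mean and SD of the 4 libraries of a group (veh, vehicle; ent, entinostat). Mad2l1 is lowest in entinostat day 10 (21.3 to 26.5 CPM) and highest in entinostat day 17 (54.9 to 71.3 CPM), Smc4 is lower under entinostat on both days, and Top2a, Bub1b and Kif18a in entinostat day 17 do not overlap with vehicle day 17.

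In the chromosomal passenger complex, which corrects faulty attachments and marks the division plane, the kinase Aurkb and Birc5 (survivin) rose under entinostat and the scaffold Incenp did not pass. Aurkb stood at 6.72, 10.1, 12.9 and 16.7 CPM in vehicle libraries 1 to 4 and 10.8, 7.47, 13.6 and 9.47 CPM in entinostat libraries 1 to 4 at day 10. For Aurkb at day 17 the values were 39.6, 20.9, 16.7 and 19.2 CPM under vehicle and 44.1, 29.3, 19.9 and 40.4 CPM under entinostat. The entinostat days did not overlap, and vehicle day 17 library 1 was about as high as the upper entinostat libraries. The changes were 1.72 ± 0.36 (SE), adjusted p = 0.00394 under entinostat and 1.06 ± 0.36 (SE), adjusted p = 0.0822 under vehicle. The second passed in 2 of the 28 alternatives, among them DESeq2 (adjusted p = 0.0268). Birc5 stood at 11.3, 14.3, 12.02 and 31.9 CPM in vehicle libraries 1 to 4 and 12.3, 18.3, 16.3 and 28.1 CPM in entinostat libraries 1 to 4 at day 10. For Birc5 at day 17 the values were 46.03, 34.4, 25.7 and 24.3 CPM under vehicle and 62.1, 46.3, 33.2 and 52.9 CPM under entinostat. Library 4 was the highest of both day 10 groups, and the entinostat days did not overlap. The Birc5 changes were 1.38 ± 0.35 (SE), adjusted p = 0.0124 under entinostat and 0.91 ± 0.34 (SE), adjusted p = 0.113 under vehicle. Its vehicle change passed in 4 of the 28 alternatives, among them limma-voom (adjusted p = 0.0359). For Incenp the log2 difference between the days was 0.57 ± 0.19 (SE), adjusted p = 0.0555 under entinostat, with entinostat day 17 library 3 at 54.7 CPM and the other 3 at 102 to 121 CPM. It passed in 9 of the 28 alternatives, among them DESeq2 (adjusted p = 0.0114), limma-voom (adjusted p = 0.00687) and without that library (adjusted p = 0.00911).

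At the centromere and kinetochore, Cenpe, Cenpf, Ndc80 and Nuf2 rose under entinostat, Cenpf and Nuf2 also under vehicle, and Cenpa, the histone variant that marks centromeres, did not pass. Cenpe, the kinesin that moves chromosomes to the spindle equator, stood at 21.4, 7.26, 21.4 and 31.1 CPM in vehicle libraries 1 to 4 and 12.3, 11.1, 23.4 and 6.61 CPM in entinostat libraries 1 to 4 at day 10. For Cenpe at day 17 the values were 40.3, 23.03, 27.02 and 38.1 CPM under vehicle and 58.5, 53.9, 44.8 and 66.1 CPM under entinostat. Every entinostat library of day 17 was above every vehicle library and every entinostat library of day 10. Its rise under entinostat, 2.09 ± 0.39 (SE), adjusted p = 0.00165, was a 4.25-fold change, and the day 17 difference from vehicle was 0.81 ± 0.38 (SE), adjusted p = 0.141. Cenpf, a large coiled-coil protein of the outer kinetochore, stood at 2.44, 5.70, 5.57 and 16.2 CPM in vehicle libraries 1 to 4 and 8.18, 7.72, 13.9 and 8.04 CPM in entinostat libraries 1 to 4 at day 10. For Cenpf at day 17 the values were 36.1, 25.7, 14.4 and 38.8 CPM under vehicle and 41.8, 51.4, 28.2 and 33.6 CPM under entinostat. Vehicle day 10 library 4 was above vehicle day 17 library 3, and the entinostat days were apart. Its rises were 1.93 ± 0.45 (SE), adjusted p = 0.0219 and 2.05 ± 0.45 (SE), adjusted p = 0.00536 under vehicle and entinostat. The Cenpf rise under vehicle was lost without any 1 of 4 libraries (vehicle day 10 libraries 1, 2 and 3, vehicle day 17 library 4, adjusted p = 0.0513 to 0.0857).

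Ndc80 and Nuf2 form the arm of the kinetochore that binds microtubules. Ndc80 stood at 12.8, 14.3, 7.92 and 6.01 CPM in vehicle libraries 1 to 4 and 11.9, 13.4, 16.3 and 13.2 CPM in entinostat libraries 1 to 4 at day 10. For Ndc80 at day 17 the values were 22.9, 15.6, 17.2 and 14.4 CPM under vehicle and 36.98, 36.9, 21.6 and 27.5 CPM under entinostat. Both treatments were higher at day 17 without overlap, by a narrow margin under vehicle. The change was 1.18 ± 0.31 (SE), adjusted p = 0.0168 under entinostat and 0.78 ± 0.31 (SE), adjusted p = 0.132 under vehicle, and the entinostat call was lost without any 1 of 2 libraries (entinostat day 10 library 2, entinostat day 17 library 1, adjusted p = 0.0509 to 0.0677). Nuf2 stood at 3.36, 2.59, 3.81 and 12.6 CPM in vehicle libraries 1 to 4 and 10.4, 10.3, 8.33 and 8.04 CPM in entinostat libraries 1 to 4 at day 10. For Nuf2 at day 17 the values were 17.9, 15.6, 13.4 and 19.5 CPM under vehicle and 27.01, 19.7, 31.5 and 30.9 CPM under entinostat. Neither day 17 group overlapped with the other or with day 10, by a narrow margin between the treatments, and vehicle day 10 library 4 stood far above its group. Its rises were 1.56 ± 0.42 (SE), adjusted p = 0.0378 and 1.55 ± 0.42 (SE), adjusted p = 0.0186. The Nuf2 rise under vehicle was lost without any 1 of 6 libraries (vehicle day 10 libraries 1, 2 and 3, vehicle day 17 libraries 2, 3 and 4, adjusted p = 0.0512 to 0.126). The Nuf2 rise under entinostat was lost without entinostat day 17 library 4 (adjusted p = 0.0562). Cenpa ranged from 56.4 to 93.0 CPM over all 16 libraries.

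All 8 spindle motors and microtubule proteins rose under entinostat, and 6 of them under vehicle. Kif15, a motor that helps keep the spindle bipolar, stood at 22.9, 17.4, 21.7 and 21.7 CPM in vehicle libraries 1 to 4 and 27.9, 19.6, 49.3 and 16.1 CPM in entinostat libraries 1 to 4 at day 10. For Kif15 at day 17 the values were 68.4, 42.9, 54.3 and 60.01 CPM under vehicle and 64.6, 58.4, 46.4 and 49.9 CPM under entinostat. The vehicle days were far apart, and entinostat day 10 library 3 reached the day 17 range. The rise was 1.43 ± 0.28 (SE), adjusted p = 0.00841 under vehicle and 0.98 ± 0.28 (SE), adjusted p = 0.0235 under entinostat, the latter lost without any 1 of 5 libraries (entinostat day 10 libraries 1, 2 and 4, entinostat day 17 libraries 1 and 2, adjusted p = 0.0511 to 0.0889). Aspm, a spindle pole protein, stood at 11.3, 8.55, 11.7 and 13.6 CPM in vehicle libraries 1 to 4 and 14.9, 9.52, 16.96 and 10.4 CPM in entinostat libraries 1 to 4 at day 10. For Aspm at day 17 the values were 29.8, 30.4, 29.1 and 42.9 CPM under vehicle and 49.5, 53.3, 29.9 and 53.3 CPM under entinostat. No day 10 library of either treatment reached a day 17 library. The vehicle day 10 mean of Aspm, 11.3 CPM, was under the receptors' 99th percentile of 12.7 CPM. The rise was 1.54 ± 0.27 (SE), adjusted p = 0.00423 and 1.87 ± 0.27 (SE), adjusted p = 0.000177 under vehicle and entinostat.

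Tpx2, which activates Aurora A and nucleates microtubules near chromosomes, stood at 8.86, 9.33, 17.6 and 31.6 CPM in vehicle libraries 1 to 4 and 14.9, 11.8, 29.3 and 10.01 CPM in entinostat libraries 1 to 4 at day 10. For Tpx2 at day 17 the values were 50.7, 40.8, 49.9 and 30.9 CPM under vehicle and 82.6, 58.4, 41.5 and 74.97 CPM under entinostat. Vehicle day 10 library 4 met the lowest vehicle value of day 17, and the entinostat days were apart. Its rises were 1.35 ± 0.39 (SE), adjusted p = 0.0481 and 2.00 ± 0.40 (SE), adjusted p = 0.00243. The Tpx2 rise under vehicle was lost without any 1 of 11 libraries (vehicle day 10 libraries 1, 2 and 3, entinostat day 10 library 1, vehicle day 17 libraries 1, 2, 3 and 4, entinostat day 17 libraries 1, 2 and 4, adjusted p = 0.0506 to 0.137). Nusap1, which bundles microtubules at chromosomes, stood at 25.7, 17.9, 19.6 and 29.3 CPM in vehicle libraries 1 to 4 and 29.7, 14.9, 26.5 and 27.2 CPM in entinostat libraries 1 to 4 at day 10. For Nusap1 at day 17 the values were 58.5, 37.6, 35.8 and 36.4 CPM under vehicle and 62.4, 58.7, 43.1 and 57.3 CPM under entinostat. Day 17 was above day 10 in both treatments without overlap, and vehicle library 1 of day 17 stood well above its group. Its rises were 0.87 ± 0.24 (SE), adjusted p = 0.0453 and 1.19 ± 0.25 (SE), adjusted p = 0.00343. The Nusap1 rise under vehicle was lost without any 1 of 12 libraries (vehicle day 10 libraries 1, 2 and 3, entinostat day 10 libraries 1 and 3, vehicle day 17 libraries 1, 2, 3 and 4, entinostat day 17 libraries 1, 2 and 4, adjusted p = 0.0527 to 0.141).

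Kif11, the motor that pushes spindle poles apart, stood at 22.9, 28.3, 32.2 and 23.3 CPM in vehicle libraries 1 to 4 and 39.8, 21.4, 50.3 and 38.1 CPM in entinostat libraries 1 to 4 at day 10. For Kif11 at day 17 the values were 55.1, 45, 52.8 and 41.2 CPM under vehicle and 109.6, 72.97, 49.8 and 90.2 CPM under entinostat. Entinostat library 3 of day 17 lay among the vehicle values and just below entinostat day 10 library 3. Kif11 was higher under entinostat at day 17 by 0.76 ± 0.24 (SE), adjusted p = 0.0361, lost without any 1 of 5 libraries (vehicle day 17 libraries 2, 3 and 4, entinostat day 17 libraries 1 and 4, adjusted p = 0.0644 to 0.139). Its rises with time were 0.86 ± 0.24 (SE), adjusted p = 0.0463 and 1.14 ± 0.24 (SE), adjusted p = 0.00431, the first lost without any 1 of 12 libraries (vehicle day 10 libraries 1, 2, 3 and 4, entinostat day 10 library 1, vehicle day 17 libraries 1, 2, 3 and 4, entinostat day 17 libraries 1, 2 and 4, adjusted p = 0.0544 to 0.124). Kif18a, a motor that dampens chromosome movement at the plate, stood at 41.9, 22.3, 29.3 and 33.99 CPM in vehicle libraries 1 to 4 and 41.3, 30.9, 55.5 and 31.1 CPM in entinostat libraries 1 to 4 at day 10. For Kif18a at day 17 the values were 22.9, 36.8, 27.02 and 47.3 CPM under vehicle and 73.95, 61.7, 72.99 and 66.8 CPM under entinostat. All 4 entinostat libraries of day 17 were above all other 12 libraries. The day 17 difference was 1.04 ± 0.25 (SE), adjusted p = 0.00763, a 2.06-fold level. Its change was 0.06 ± 0.25 (SE), adjusted p = 0.89 under vehicle and 0.79 ± 0.25 (SE), adjusted p = 0.0403 under entinostat, the latter lost without any 1 of 11 libraries (vehicle day 10 libraries 3 and 4, entinostat day 10 libraries 1, 2 and 4, vehicle day 17 libraries 2 and 3, entinostat day 17 libraries 1, 2, 3 and 4, adjusted p = 0.0507 to 0.14). Kif4, a motor carried on chromosomes, rose by 1.29 ± 0.33 and 1.53 ± 0.33 (adjusted p = 0.0301 and 0.00416), the vehicle call lost without any 1 of 5 libraries (vehicle day 10 libraries 1, 2 and 3, vehicle day 17 libraries 2 and 3, adjusted p = 0.0548 to 0.111). Kif2c, which depolymerises microtubules at centromeres, rose under entinostat by 1.86 ± 0.57 (SE), adjusted p = 0.0362, from 2.83 to 16.7 CPM to 25.6 to 41.4 CPM, lost without any 1 of 6 libraries (entinostat day 10 libraries 1, 2 and 4, entinostat day 17 libraries 1, 3 and 4, adjusted p = 0.0611 to 0.114).

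For the midzone and cytokinesis genes, Kif20a and Prc1 rose under entinostat, and Kif23, Anln and Ect2 did not pass. Prc1, which bundles the antiparallel microtubules of the midzone, stood at 34.8, 40.7, 45.7 and 68.8 CPM in vehicle libraries 1 to 4 and 37.6, 44.3, 31.8 and 48.97 CPM in entinostat libraries 1 to 4 at day 10. For Prc1 at day 17 the values were 66.2, 59.03, 50.96 and 68.9 CPM under vehicle and 80.4, 82.1, 79.6 and 81.8 CPM under entinostat. The entinostat day 17 libraries were close together and above every other library. Its rise under entinostat was 0.99 ± 0.19 (SE), adjusted p = 0.00202, and the day 17 difference from vehicle was 0.40 ± 0.19 (SE), adjusted p = 0.143. Kif20a, the motor that brings the passenger complex to the midzone, stood at 11, 5.44, 15.2 and 20.7 CPM in vehicle libraries 1 to 4 and 17.1, 14.4, 20.7 and 10.5 CPM in entinostat libraries 1 to 4 at day 10. For Kif20a at day 17 the values were 28.6, 34.9, 31.9 and 21.6 CPM under vehicle and 51.1, 27.7, 31.5 and 62.8 CPM under entinostat. Day 17 exceeded day 10 in both treatments without overlap. The Kif20a changes were 1.49 ± 0.36 (SE), adjusted p = 0.0105 under entinostat and 1.16 ± 0.36 (SE), adjusted p = 0.0642 under vehicle, and the first was lost without entinostat day 17 library 4 (adjusted p = 0.0539). The second passed in 5 of the 28 alternatives (adjusted p = 0.0180 by DESeq2 and 0.0176 by limma-voom). Anln, the scaffold of the contractile ring, had 59.9 CPM in vehicle day 10 library 4 and 2.07 to 7.62 CPM in the other 3, and its change under entinostat was 2.19 ± 0.76 (SE), adjusted p = 0.0649. Ect2, which activates RhoA at the furrow, and Kif23, a subunit of centralspindlin, had differences of 1.21 ± 0.40 and 0.22 ± 0.32 between the days under entinostat (adjusted p = 0.0534 and 0.711). Under entinostat, Ect2 passed in 13 of the 28 alternatives (adjusted p = 0.0142 by DESeq2 and 0.00604 by limma-voom) and Anln in 8 (adjusted p = 0.0407 and 0.0239). Under vehicle, Anln passed in 3 (adjusted p = 0.0155 by limma-voom and 0.00495 without vehicle day 10 library 4).

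At anaphase onset, Ube2c and Cdc20 rose under entinostat, and Espl1 (separase) and Pttg1 (securin, its inhibitor) did not pass. Cdc20, the activator of the anaphase-promoting complex that MAD2 restrains, stood at 31.2, 30.8, 25.5 and 32.9 CPM in vehicle libraries 1 to 4 and 20.1, 14.4, 24.7 and 21.4 CPM in entinostat libraries 1 to 4 at day 10. For Cdc20 at day 17 the values were 51.5, 41.6, 40.9 and 46.98 CPM under vehicle and 52.7, 30.96, 31.5 and 41.4 CPM under entinostat. At day 10 every entinostat library was below every vehicle library, and in both treatments day 17 was above day 10 without overlap. The day 10 difference did not pass, at -0.58 ± 0.22 (SE), adjusted p = 0.0755. Its change with time was 0.97 ± 0.22 (SE), adjusted p = 0.00621 under entinostat and 0.59 ± 0.21 (SE), adjusted p = 0.103 under vehicle. Ube2c stood at 5.50, 6.74, 13.8 and 25.4 CPM in vehicle libraries 1 to 4 and 6.32, 2.32, 16.04 and 18.4 CPM in entinostat libraries 1 to 4 at day 10. For Ube2c at day 17 the values were 34.1, 34.4, 21.4 and 40.1 CPM under vehicle and 36.3, 43.1, 24.9 and 34.3 CPM under entinostat. Entinostat day 10 library 2 was the lowest of all 16, and the entinostat days did not overlap. The change was 1.69 ± 0.52 (SE), adjusted p = 0.0371 under entinostat, lost without any 1 of 6 libraries (entinostat day 10 libraries 1 and 2, entinostat day 17 libraries 1, 2, 3 and 4, adjusted p = 0.0504 to 0.0967). Under vehicle the Ube2c difference was 1.33 ± 0.51 (SE), adjusted p = 0.116. It passed in 4 of the 28 alternatives, among them limma-voom (adjusted p = 0.0285). The difference between the days under entinostat was 1.53 ± 0.55 (SE), adjusted p = 0.0738 for Espl1, and for Pttg1 0.01 ± 0.22 (SE), adjusted p = 0.98. Espl1 passed in 7 of the 28 alternatives, among them DESeq2 (adjusted p = 0.0242) and the replicate block (adjusted p = 0.0264).

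Levels compared between genes per kb of exon (GENCODE M21 exon union, mean of the 16 libraries) ran from 1.37 CPM per kb for Cenpf to 39.9 for Smc4. Next to Smc4 came Pttg1 (25.5), Ccnb2 (20.0), Incenp (19.2), Bub3 (18.3) and Cdc20 (18.0), and next to Cenpf came Aspm (2.24), Nuf2 (2.32), Espl1 (2.70) and Ndc80 (2.78). Receptor genes stood at 0.111 to 1.17 CPM per kb of exon by library (0.385 to 4.06 per kb of coding length). After that level was taken off, 4 of the 42 genes were at or under 0 in at least 1 library, or 22 with the coding length. Of the genes with the highest level per length, Smc4, Incenp, Bub3 and Pttg1 did not pass the threshold with time in either treatment, while Ccnb2 and Cdc20 rose under entinostat.

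Set beside the promoter letters, the calls ran across the classes. Of the 24 genes with a CHR and a CCAAT in the window, 16 rose under entinostat, 6 rose under vehicle and 5 were higher under entinostat at day 17. The 6 with 1 motif gave 4, 1 and 0, and the 6 with neither gave 5, 2 and 2. Bub3 holds both motifs and passed in no comparison, and Mad2l1, Kif18a, Nuf2, Nusap1 and Birc5 hold neither and rose under entinostat. Smc4, Ccna2, Aurkb, Incenp, Tpx2 and Kif20a were not in the table.

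Genes outside the set with roles in the same processes were read from 6 further lists of 108 genes, all tested. The counts stand against the shares of all genes given above. At day 17, 8 of the 108 were higher under entinostat and 5 lower, at day 10 the counts were 2 and 3, with time under vehicle 4 and 2, and with time under entinostat 24 and 6. Leaving out 1 library gave 3 to 10 higher and 1 to 6 lower at day 17, 0 to 4 and 0 to 5 at day 10, 0 to 12 and 1 to 7 with time under vehicle, and 16 to 25 and 4 to 9 with time under entinostat. At day 17 DESeq2 gave 16 higher and 3 lower, limma-voom 27 and 4, library size alone 13 and 1, and a minimum count of 50 gave 17 and 2. At day 17, 4 of the 13 calls held in all 28 alternatives, those of Zwilch, Mybl2, Pds5a and Numa1. Zwilch, which brings the checkpoint dynein adaptor to kinetochores, was higher at day 17 by 1.72 ± 0.39 (SE), adjusted p = 0.00567, with 11.4 ± 5.01 CPM (SD, n = 4) under vehicle and 37.8 ± 9.68 CPM under entinostat. Mybl2 (B-MYB, the activator that joins MuvB at CHR promoters) was 14.6 ± 2.53 CPM under vehicle and 34.1 ± 3.25 CPM under entinostat at day 17, a difference of 1.23 ± 0.33, adjusted p = 0.0142. Spc25, a partner of Ndc80 and Nuf2, differed by 1.14 ± 0.34 (adjusted p = 0.0259), Dlgap5 by 1.20 ± 0.35 (adjusted p = 0.025) and Hmmr by 1.11 ± 0.35 (adjusted p = 0.0334), both of the spindle. Ncaph, the condensin I subunit that closes the Smc2 and Smc4 ring, was higher by 0.82 ± 0.26 (adjusted p = 0.0379). The Spc25 call was lost without any 1 of 5 libraries (vehicle day 17 libraries 2 and 3, entinostat day 17 libraries 1, 2 and 3, adjusted p = 0.0567 to 0.0851). The Dlgap5 call was lost without any 1 of 4 libraries (vehicle day 17 libraries 2 and 3, entinostat day 17 libraries 1 and 4, adjusted p = 0.0579 to 0.0846). The Hmmr call was lost without any 1 of 6 libraries (vehicle day 17 libraries 1, 2 and 3, entinostat day 17 libraries 1, 2 and 4, adjusted p = 0.0552 to 0.0861). The Ncaph call was lost without any 1 of 6 libraries (vehicle day 10 library 3, vehicle day 17 libraries 2, 3 and 4, entinostat day 17 libraries 1 and 4, adjusted p = 0.0505 to 0.124).

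Lower under entinostat at day 17 on the log2 scale were Numa1, the spindle pole anchor, at -0.54 ± 0.11 (SE, adjusted p = 0.00229), Anapc7 of the anaphase-promoting complex at -0.75 ± 0.22 (adjusted p = 0.0226), Cdc25b, a phosphatase that activates CDK1, at -0.44 ± 0.13 (adjusted p = 0.0226), and the cohesin subunits Stag2, at -0.44 ± 0.12 (adjusted p = 0.0197), and Stag1, at -0.40 ± 0.14 (adjusted p = 0.0466). The Anapc7 call was lost without any 1 of 5 libraries (vehicle day 17 libraries 1 and 3, entinostat day 17 libraries 2, 3 and 4, adjusted p = 0.0641 to 0.14). The Cdc25b call was lost without any 1 of 5 libraries (vehicle day 17 libraries 1, 2 and 3, entinostat day 17 libraries 3 and 4, adjusted p = 0.0675 to 0.133). The Stag2 call was lost without any 1 of 5 libraries (vehicle day 17 libraries 3 and 4, entinostat day 17 libraries 2, 3 and 4, adjusted p = 0.0508 to 0.108). The Stag1 call was lost without any 1 of 13 libraries (vehicle day 10 libraries 1, 2, 3 and 4, entinostat day 10 libraries 2, 3 and 4, vehicle day 17 libraries 1, 3 and 4, entinostat day 17 libraries 2, 3 and 4, adjusted p = 0.0514 to 0.234). With time under entinostat, 10 of the 21 genes of the spindle and cytokinesis list rose, among them Dlgap5, Hmmr and Tacc3, and 1, Numa1, fell. Of the 17 mitotic entry regulators 4 rose (Mybl2, Melk, Pbk and Cks1b), and of 29 kinetochore and centromere genes 5 (Spc24, Spc25, Nsl1, Cenpk and Ska1). The Melk rise was lost without any 1 of 5 libraries (entinostat day 10 libraries 1, 2 and 3, entinostat day 17 libraries 1 and 3, adjusted p = 0.0517 to 0.0811). The Cenpk rise was lost without any 1 of 10 libraries (vehicle day 10 libraries 1 and 4, entinostat day 10 libraries 2, 3 and 4, vehicle day 17 libraries 2 and 3, entinostat day 17 libraries 1, 3 and 4, adjusted p = 0.0533 to 0.126). The Ska1 rise was lost without any 1 of 7 libraries (entinostat day 10 libraries 1, 2 and 3, entinostat day 17 libraries 1, 2, 3 and 4, adjusted p = 0.0504 to 0.0883). Among the entry regulators Cdc25b fell, by 0.86 on the log2 scale (adjusted p = 0.000201), and this call held in all 28 alternatives. Of the kinetochore and centromere genes Mis12, which links the centromere to the outer kinetochore, fell by 0.58 (adjusted p = 0.0480), and this was lost without any 1 of 7 libraries (vehicle day 10 library 3, entinostat day 10 libraries 2, 3 and 4, vehicle day 17 library 3, entinostat day 17 libraries 3 and 4, adjusted p = 0.0502 to 0.116). Of 13 condensin and cohesin genes 3 rose (Ncaph, Ncapg2 and Cdca5) and 2 fell (Smc3 and Stag1). Of 11 further checkpoint and passenger genes 2 rose (Cdca8 and Kntc1) and 1 fell (Mad2l1bp), and 0 of 17 anaphase-promoting complex genes passed. The calls of Ncaph, Cdca5, Smc3 and Stag1 were lost without any 1 of 9, 7, 7 and 2 libraries. Those of Ncapg2, Cdca8, Kntc1 and Mad2l1bp held in all 28 alternatives. Pds5a, a cohesin regulator, was the only one of the 108 for which the entinostat effect differed between days, by 1.16 ± 0.21 (adjusted p = 0.0264): its levels were 209 ± 12.5 and 149 ± 34.8 CPM at day 10 and 106 ± 17.3 and 167 ± 21.6 CPM at day 17 under vehicle and entinostat. The Pds5a difference was lost without any 1 of 3 libraries (vehicle day 10 library 3, entinostat day 10 libraries 1 and 3, adjusted p = 0.0569 to 0.0641).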

How the data were processed

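RNA of sorted CD8 T cells was sequenced in 16 libraries, 4 in each of 4 groups. The deposited table holds whole-number exon counts per gene, per the file headers, and the libraries were made with SMART-seq v4 and Nextera XT, per the labels' protocols. Per the submitters' processing notes, STAR and mm10 were used. Which program counted the exons, and on which annotation, is not given in the sources used. The libraries keep no strand, so a gene and an overlapping or antisense gene cannot be separated, and the counts carry no molecular identifiers.

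From the counts, genes with low values were dropped (edgeR's filterByExpr, minimum count 10), which left 17414 of 24028 genes, and libraries were scaled by TMM (factors 0.878 to 1.15). Differences came from edgeR 4.0.16's quasi-likelihood test in R 4.3.3, fitted to the 16 libraries together with 1 mean for each group and 12 residual degrees of freedom, with Benjamini-Hochberg adjustment over all genes tested and a threshold of 0.05. The common biological coefficient of variation was 0.38. Whether the libraries are separate animals is not in the labels, and every p-value reflects the spread among these libraries alone, which may be technical. No pair of replicates was as alike as sampling noise allows (lowest chi-square per degree of freedom 3.04). The script was tested on simulated counts. The alternatives used DESeq2 1.42.0 and limma 3.58.1, other scalings and filters, the replicate number as a block, and each library left out in turn.

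The genes and lists were chosen with earlier results of these data known. Values in every library are given for up to 4 members per role by smallest p among those past the threshold, and always for Mki67, Cdk1, Ccnb1, Plk1 and Aurkb; Kif11 and Kif18a were added after their values were seen because they passed at day 17. Receptor background is the level of 1425 olfactory and vomeronasal receptor genes. All 42 members had a mean over the 16 libraries above the receptors' 99th percentile of 12.7 CPM. At day 10 alone some members had group means under it. Under vehicle and entinostat these were 5.58 and 9.27 CPM for Nuf2, 6.10 and 8.69 CPM for Kif2c, 7.48 and 9.46 CPM for Cenpf, 8.95 and 10.1 CPM for Plk1, 11.6 and 10.3 CPM for Aurkb and 12.65 and 12.1 CPM for Aurka. Under vehicle alone they were Ttk (7.02 CPM), Ndc80 (10.3), Aspm (11.3), Kif4 (11.6) and Ccnb1 (12.4). Under entinostat alone they were Anln (9.96 CPM) and Ube2c (10.8). Some gene symbols of the other lists were matched to the file's older names through their gene identifiers.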

Additional observations from a re-analysis of the deposited data

Results flagged for a closer look

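In 8 of the 172 groups of 4 libraries tested, 1 library lay far from the other 3, about the share that chance gives (1 in 20). In vehicle day 10 library 4, Anln stood at 59.9 CPM (the other 3 at 2.07 to 7.62), Birc5 at 31.9 CPM (11.3 to 14.3) and Nuf2 at 12.6 CPM (2.59 to 3.81). That library also held 240.3 CPM of stromal markers (212 CPM of it Col1a1), against 10.1 to 21.4 CPM in the other 3, and the part of this in the values was not tested. In vehicle day 17, Nusap1 was 58.5 CPM in library 1 (35.8 to 37.6 in the others) and Aspm was 42.9 CPM in library 4 (29.1 to 30.4). Aspm was 29.9 CPM in entinostat day 17 library 3 (49.5 to 53.3), which has the fewest counts. In entinostat day 10, Aurka was 10.0 CPM in library 1 (12.6 to 13.0) and Cenpf was 13.9 CPM in library 3 (7.72 to 8.18).

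Mad2l1 was the 1 member whose entinostat effect differed between the days in edgeR's test of the difference, by 1.22 on the log2 scale (adjusted p = 0.0279). It was lower in 4 of 4 entinostat libraries at day 10, and at day 17 its 4 entinostat libraries lay above 3 of 4 vehicle libraries.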

How the results depend on the processing

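Of the 50 values that passed the threshold over the 5 comparisons, 28 passed under all 28 alternatives, 22 missed it under at least 1, and 0 changed sign. Of the 160 that did not pass, 49 changed sign under at least 1 alternative and 46 passed under at least 1. No median over the 42 genes moved by as much as the members' median standard error in the main fit, in 139 recomputations. That bar is a standard error of single genes and not of a median. The cause of the changes below was not tested.

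Entinostat at day 10 gave 2 called members, 6 with limma-voom and quality weights, and 2 to 4 when 1 library was left out. Entinostat at day 17 gave 8, and 14 with DESeq2, 28 with limma-voom, 4 with no filter, 14 with a minimum count of 50, 14 with genes above the receptor background alone, and 3 to 10 without 1 library. Time under vehicle gave 10, and 16 with DESeq2, 16 with limma-voom, 5 with no filter, 5 with only the groups compared, and 2 to 19 without 1 library; leaving out vehicle day 10 library 4 and entinostat day 17 library 3 together, chosen after seeing the data, gave 20. Time under entinostat gave 29, and 23 to 32 without 1 library. The difference between days gave 1, and 2 with DESeq2, 2 with limma-voom, 0 with no filter, 0 with a replicate block within each day, 0 without the same pair of libraries, and 0 to 1 without 1 library. Fewer or more genes tested is part of the construction of the filter settings.

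With the replicate number as a block, the counts were 2, 6, 9, 30 and 1 for the 5 comparisons, and with the block within each day 2, 6, 13, 30 and 0. The labels do not say what a number shares. Over all genes tested, same-numbered libraries of day 10 had correlations of 0.180, 0.0329, 0.114 and 0.0572, and among genes above the receptor background 0.249, 0.227, 0.212 and 0.234, where every pair is over 0.1. No other comparison had every pair over 0.1 in either gene set, and in no comparison did every library match its own number best. The numbers were not taken as pairs, and the day 10 count was 2 with and without the block. Under the block, Mki67 (adjusted p = 0.0536) and Mad2l1 (adjusted p = 0.0540) no longer passed at day 17, and Kif11 (adjusted p = 0.0609) and Tpx2 (adjusted p = 0.0568) under vehicle. With time under entinostat Kif18a no longer passed (adjusted p = 0.0576), and Ccnb1 (adjusted p = 0.0302) and Espl1 (adjusted p = 0.0264) did, as did Ccna2 under vehicle (adjusted p = 0.0419).

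Scaling by library size alone moved the median over all genes by 0.162, 0.152, 0.135, 0.126 and -0.0109 in the same order. RLE scaling (relative log expression) within edgeR moved it by 0.0526, 0.107, 0.0183, 0.0718 and 0.0515. The median of the members less that of all genes was 0.567 at day 17 by TMM and 0.565 by library size alone, and 1.33 by both for time under entinostat. The share of all called genes that were higher was 52.4, 28.9, 34.2, 23.7 and 46.3% by TMM, 58.0, 40.7, 33.7, 32.5 and 58.5% by RLE, and 76.0, 48.2, 59.4, 43.3 and 43.1% by library size alone. Depth limits entinostat day 17 library 3 most, where the lowest member had 3 counts.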
